A study of Drosophila melanogaster with 12 samples.

Results

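The histone variants considered here are histones made outside the S-phase gene cluster, together with a germline linker histone and the centromeric histone. They were taken by gene symbol from the array platform's annotation, which holds a probe set for 4 of the 6 genes named: His2Av, BigH1, cid and His4r. Of the 18769 probe sets that are not controls, 5 belong to these genes. The probe sets of His2Av, BigH1 and cid each name that gene alone. Both His4r probe sets also name 18 copies of the S-phase gene His4, so their signal cannot be assigned to His4r and they are called the His4/His4r probe sets. For His3.3A and His3.3B no probe set is named by that annotation, and they were not analysed here.

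Testes were dissected whole from Drosophila melanogaster males aged 1 day and raised at 25 °C. RNA was pooled from about 200 pairs a sample, and each sample was hybridised to its own Affymetrix Drosophila Genome array. The 4 genotypes, with 3 biological replicates each, were bam1/bamΔ86 (bam), aly2/aly5P (aly), sa1/sa2 (sa) and the control y,w, itself a double mutant, called yw. Loss of bam leaves germ cells dividing as spermatogonia, loss of aly or sa arrests them as primary spermatocytes, and yw testes hold all stages; the labels do not give the y and w alleles of the 3 mutants.

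A nucleosome wraps DNA around histones H2A, H2B, H3 and H4, and a linker histone of the H1 class binds where the DNA enters and leaves. Most histone is made in S phase from a cluster of repeated genes, whose messages end in a stem-loop rather than a poly(A) tail in dividing cells. Variants such as His2Av and H3.3 are made and deposited outside S phase, and in fly spermatids nearly all histones are later exchanged for protamine-like proteins. Cid, the fly CENP-A, replaces H3 at centromeres and is kept there through sperm formation.

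Intensities ran from 9.35 to 25799 over all arrays, with an array median of 44.9 to 57.2 after control probe sets were left out. Pearson's r over probe sets, which are not independent replicates, was at least 0.982 within a genotype and at most 0.923 between genotypes. To check the labels against the data, the transcript of sa lay between 96.2 and 112 in its own mutant against 1179 to 1518 in yw. The bam transcript (948 to 1174 in bam, 36.5 to 67.2 in yw) and the aly transcript (132 to 148 in aly, 83.7 to 89.4 in yw) were not lower in theirs, and the position of their probes beside the mutated sites was not analysed here. Differences are in log2(intensity + 16), a scale that understates changes of dim genes, and a probe set was called at a limma adjusted p (Benjamini-Hochberg over all 18769) under 0.05 with at least a 2-fold change. With 3 arrays a genotype, the labels say "biological" but not which animals were shared, so the spread is that between these pools. Scaling decides many comparisons with yw. The mean log2 value of 47 ribosomal protein probe sets was 11.21 to 11.47 in yw against 12.11 to 12.54 over the mutants. With arrays centred on those probe sets, the median difference of all probe sets moved from 0.03 to -1.14 in bam minus yw, from -0.05 to -1.0 in sa minus yw and from 0.06 to -0.77 in aly minus yw. The share of calls that were higher went from 66.3 to 15.9%, from 64.9 to 7.87% and from 65.3 to 32.1% in the same order.

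Germline markers differed between genotypes. The summed intensity of 6 spermatogonial genes, among them nanos and ovo, was 11217 to 13142 in bam and 1374 to 2927 elsewhere. For 6 spermatocyte genes, among them tbrd-1, the sum was lowest in bam (409 to 477) and highest in aly (38333 to 43838), with sa (18393 to 19711) and yw (19420 to 22144) between. Single genes did not all follow the sum. Compared with yw, 5 were called higher and 1 lower in aly, where 28.2% and 15% of genes were. In sa 2 were called higher, 1 lower and 3 not, with a median of 0.56, where 23.9% and 12.9% of genes were called higher and lower. For 6 spermatid genes the sum was 323 to 387 in bam and highest in yw (50718 to 54590), with aly (20750 to 22158) and sa (22975 to 29698) between. Against bam, 4 of the 6 were called higher in aly, 2 not, and all 6 in sa. Over all genes 16.3% and 20.5% were called higher. Other cells moved too. Of 8 testis muscle genes measured, 7 were called higher and 1 lower in bam than in yw, where 34.2% and 18.5% of genes were. Their sums were 11894 to 13859 in bam and 1772 to 3750 over the other arrays. Sums of 11 accessory gland genes spread most in bam (22686 to 95793) and yw (12019 to 70931), beside sa (10682 to 23627) and aly (6268 to 9201). Of the 11, 10 were called lower in aly than in bam, where 18.5% of genes were. No marker was at 0. The hub gene upd1 had means of 20.4 to 22.1, below every array median, and cannot show whether hub cells changed. Of the 6 hub and cyst genes measured, 2 were called higher in bam than in yw, where 34.2% of genes were. The part of these cells in the results below was not tested.

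The 5 histone probe sets did not move as a block. In aly minus bam 3 of 5 were called, BigH1 higher and His2Av and the dimmer His4/His4r probe set lower, where 26.9% of all probe sets were called (11.8% higher, 15.1% lower). In sa minus bam 2 of 5 were called, against 31% of all (14.6% higher, 16.4% lower), with BigH1 higher and the dimmer His4/His4r probe set lower. In aly minus sa only BigH1 was called, 1 of 5 against 14.4% of all (5.84% higher, 8.59% lower), and quantile normalization added His2Av (-1.03), as did leaving out sa replicate 3 (-1.04). Against yw, 4 of 5 were called higher in each mutant. Over all probe sets 40.1% were called in bam minus yw (26.6% higher, 13.5% lower), 27.1% in sa minus yw (17.6% and 9.5%) and 31.8% in aly minus yw (20.8% and 11%). The gene not called was BigH1 in bam and in sa, and His2Av in aly. With ribosomal centring the counts against yw fell to 2 higher and 1 lower in bam, 1 in sa and 2 in aly. Of all 18769 probe sets, 2126 in bam, 795 in sa and 1893 in aly were then called higher. Cid was called higher in all 3. The 3 comparisons with yw share its arrays, as those with bam do.

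**Figure D1:**
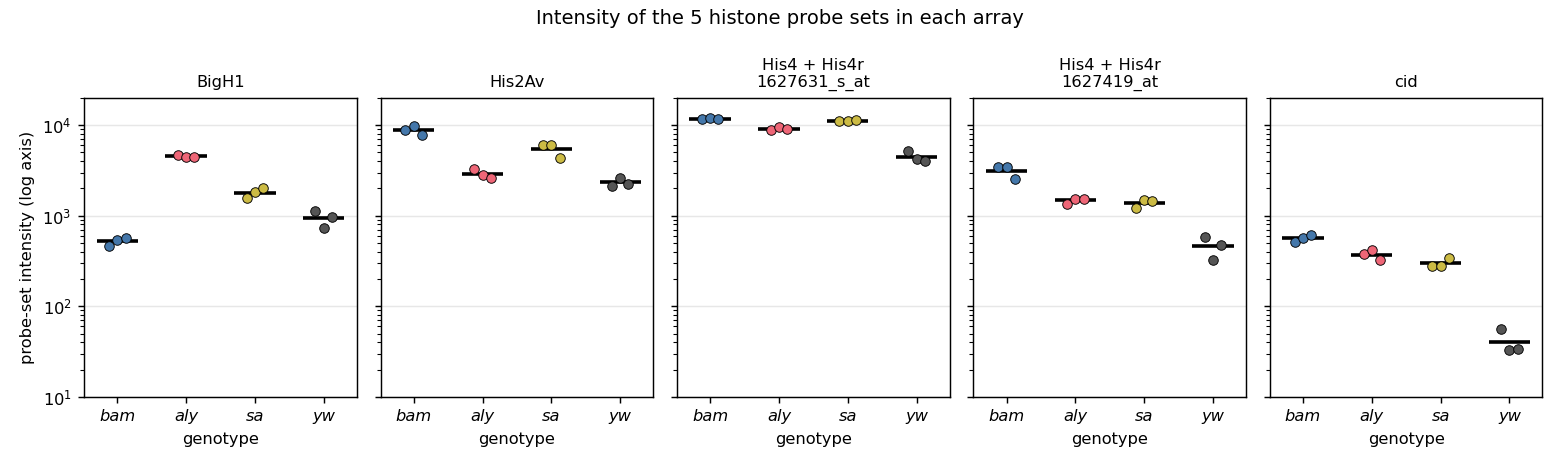
Intensity (log axis) of the 5 histone probe sets in each of the 12 arrays by genotype, with a bar at the mean; heights are comparable within a panel and not between panels. BigH1 is highest in the 3 aly arrays, His2Av in the 3 bam arrays, and cid is at 32.6 to 55.4 in yw.

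BigH1 is the linker histone of the early embryo and germ line, with a longer acidic N-terminal part than somatic H1, and its gene lies on chromosome arm 3R. It measured 4698, 4489 and 4475 in the aly arrays and 1575, 1822 and 2018 in sa. It measured 1116, 740 and 976 in yw and 459, 546 and 572 in bam. The genotypes therefore fell in the order aly, sa, yw and bam, with no overlap between neighbours. The means were 4554 ± 124 in aly, 1805 ± 222 in sa, 944 ± 190.1 in yw and 526 ± 59.3 in bam (SD, n = 3 arrays each).

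BigH1 was 8.47-fold higher in aly than in bam (log2 difference 3.08, 95% confidence interval 2.76 to 3.404, limma adjusted p = 1.82e-08), and 541 of 18769 probe sets had a larger difference. It was 3.36-fold higher in sa than in bam (1.75, 1.42 to 2.07, limma adjusted p = 1.37e-06). These pools cannot tell fewer cells of a type from less RNA per cell. Between the arrest mutants it was 2.52-fold higher in aly than in sa (1.33, 1.01 to 1.66, limma adjusted p = 2.95e-05), and 579 probe sets had a larger difference.

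Against yw, BigH1 was 4.83-fold higher in aly (2.27, limma adjusted p = 1.26e-07) and called under every scaling, the lowest value being 1.44 with ribosomal centring. The step from sa to yw was less settled. At 0.94 (0.61 to 1.26, limma adjusted p = 2.34e-04) it missed the fold minimum, passed it without sa replicate 1 (1.03) or yw replicate 1 (1.06), and was -0.01 with ribosomal centring. In bam against yw the difference was -0.81 (limma adjusted p = 4.91e-04), also short of the fold minimum, and it became a call with quantile normalization (-1.06) and with ribosomal centring (-1.98).

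His2Av is the only H2A variant of the fly and does the work that H2A.Z and H2A.X share elsewhere, in gene regulation and at DNA breaks. Its gene also lies on 3R. It measured 8947, 9677 and 7861 in bam, 5973, 5986 and 4333 in sa, 3280.5, 2835 and 2632 in aly, and 2137, 2623 and 2266 in yw. The bam arrays were the brightest and the sa arrays came next, without overlap, whereas the lowest aly array stood only just above the highest yw array. Means were 8828 ± 913 in bam, 5431 ± 950.4 in sa, 2916 ± 332 in aly and 2342 ± 252 in yw (SD, n = 3 each).

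His2Av was 3.02-fold lower in aly than in bam (-1.59, 95% confidence interval -1.91 to -1.28, limma adjusted p = 3.08e-06), a call under every scaling. In sa minus bam (-0.71, limma adjusted p = 0.00138) and aly minus sa (-0.88, limma adjusted p = 5.57e-04) the adjusted p passed and the fold minimum did not. Between aly and sa, BigH1 and His2Av thus went opposite ways in array means, though only BigH1 was called. Compared with yw, His2Av was 3.75-fold higher in bam (1.91, limma adjusted p = 3.54e-07) and 2.29-fold higher in sa (1.20, limma adjusted p = 3.06e-05). Neither remained a call with ribosomal centring (0.73 and 0.25). For aly minus yw the difference was 0.31 with an interval of -0.0044 to 0.63 (limma adjusted p = 0.0996), and -0.52 with ribosomal centring.

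The Domino remodeller and the Tip60 acetyltransferase complex exchange H2A for His2Av. Of 13 measured members of 16 listed, 8 were called higher and 2 lower in aly than in bam, with a median of 1.27, whereas 16.3% of 11982 genes were called higher and 18.5% lower with a median of 0.04. With 1 array left out, the count of higher genes was 7 to 9. Tip60, the acetyltransferase, rose from 353 ± 43.6 in bam to 1290 ± 133 in aly (1.83, limma adjusted p = 1.85e-06), and the subunits Eaf6 and Ing3 rose by 2.22 and 2.05. Act87E, an actin also made in muscle, fell by 2.95. In sa minus bam the count was 4 higher and 2 lower of 13 with a median of 0.41, where 20.5% of genes were called higher and 20.5% lower. The ATPase gene dom itself was lower there, at 823 ± 315 against 2485 ± 517 (-1.64, limma adjusted p = 5.61e-04).

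In aly minus sa 3 of these 13 genes were called higher, among them DMAP1 (1.28) and Tip60 (1.13), and 1 lower, against 7.87% and 11.9% of genes. The count of higher genes was 2 to 3 with 1 array left out. Against yw, 7 of 13 were higher and 1 lower in bam, 9 and 1 in sa and 10 and 1 in aly, where 34.2%, 23.9% and 28.2% of genes were called higher and 18.5%, 12.9% and 15% lower. Ribosomal centring lowered the counts of higher genes to 1 in bam and 5 in sa. In aly the calls lost were those of dom (0.86) and rept (0.96). Over all 18769 probe sets, 2126 in bam, 795 in sa and 1893 in aly were then called higher than in yw. On the deposited scale these were 4994, 3299 and 3902. Of 7 kinases and partners that mark histones in division or repair, 1 rose in aly against bam, the passenger subunit borr (1.07, but 0.91 and no call with quantile normalization), and in sa 1 fell, the H3 kinase aurB (-1.49). Over all genes 16.3% were called higher in aly than in bam and 20.5% lower in sa. Against yw, 6 of the 7 were higher in bam, 3 in sa (5 without yw replicate 1) and 6 in aly, beside the same 34.2%, 23.9% and 28.2%, and with ribosomal centring 1, 1 and 3 were. Haspin was called lower in aly than in yw (-1.32), a call lost without aly replicate 3, yw replicate 1 or yw replicate 3.

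**Figure D2:**
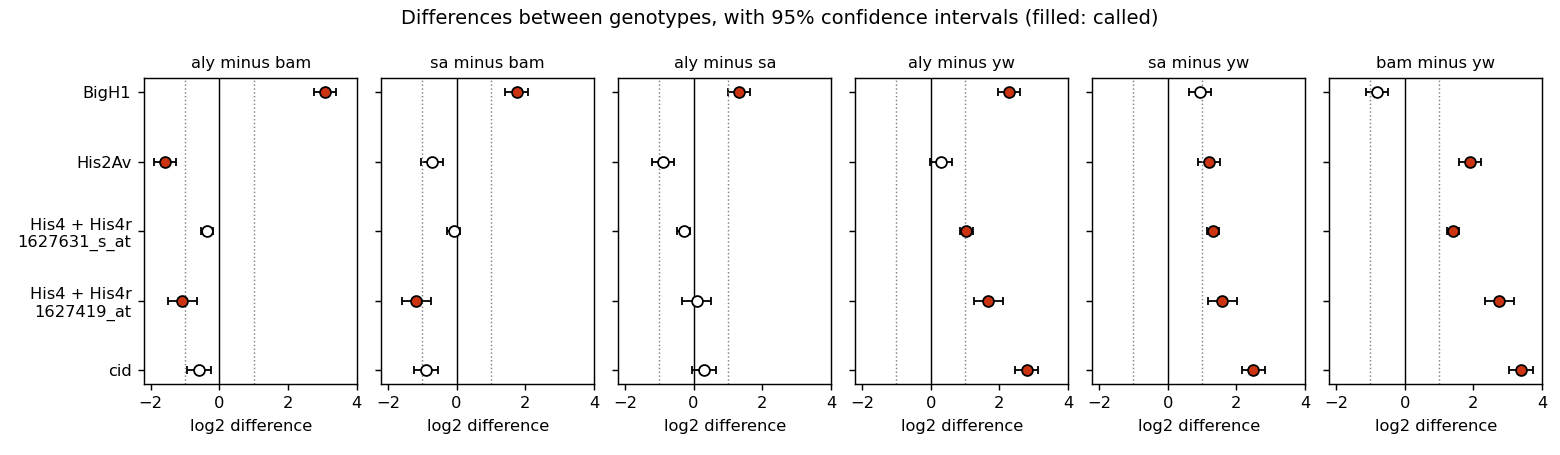
Log2 differences between genotypes for the 5 histone probe sets in 6 comparisons, with 95% confidence intervals; filled points were called and dotted lines mark a 2-fold change. BigH1 is to the right of 0 in all comparisons of aly, and cid is between 2.49 and 3.39 against yw.

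Histone H4 is the most conserved core histone. The replacement gene His4r on 3R is known to encode the same protein as the repeated His4 genes, but from messages with a poly(A) tail. The brighter of the His4/His4r probe sets measured 11577, 12072 and 11708 in bam, 10997, 11069 and 11357 in sa, 8877, 9450.5 and 9135 in aly, and 5159, 4209 and 4053 in yw. Yw stood furthest apart, and the aly arrays lay below those of bam and sa without overlap. Sa minus bam was -0.08 (limma adjusted p = 0.421) and turned to 0.0813 with quantile normalization and 0.14 with ribosomal centring. Aly minus bam was -0.36 (limma adjusted p = 0.00349), a change below the fold minimum. So was aly minus sa, at -0.28 (limma adjusted p = 0.0174), and at -0.10 with median centring.

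The dimmer probe set measured 3459, 3456 and 2553 in bam, 1361, 1544 and 1519 in aly, 1202, 1503 and 1466 in sa, and 576, 328 and 474 in yw. Here bam stood above both arrest mutants, which overlapped each other (aly minus sa 0.09, interval -0.33 to 0.51), and yw was lowest. The change from bam was -1.08 in aly (limma adjusted p = 6.01e-04) and -1.17 in sa (limma adjusted p = 2.94e-04). Both fell short of 2-fold with ribosomal centring, at -0.74 and -0.94.

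Against yw both probe sets were called higher in each mutant. The dimmer was 6.77-fold higher in bam (2.76), 3.21-fold in aly (1.68) and 3.02-fold in sa (1.59). The brighter was 2.64-fold higher in bam (1.40), 2.05-fold in aly (1.04) and 2.50-fold in sa (1.32). The aly call of the brighter was lost without yw replicate 2 (0.998) or yw replicate 3 (0.97). With ribosomal centring the brighter was at 0.23 in bam, 0.21 in aly and 0.37 in sa and the dimmer at 1.59, 0.85 and 0.65, and only the last probe set in bam was still a call.

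The His4/His4r probe sets changed unequally within arrays, a description chosen after the values were seen and given without a test. The brighter exceeded the dimmer by 1.91 ± 0.245 in bam, 2.62 ± 0.0603 in aly, 2.99 ± 0.162 in sa and 3.27 ± 0.307 in yw (log2, SD, n = 3 arrays each). The bam, aly and sa arrays did not overlap in this difference, whereas those of sa and yw did. Which transcripts each probe set reads is not known here.

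**Figure D3:**
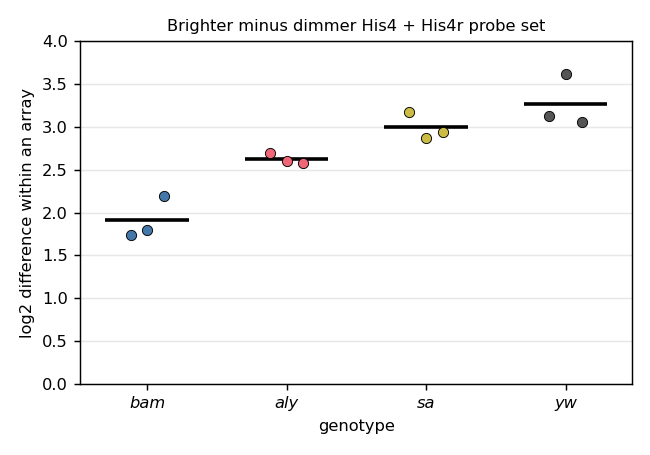
Log2 difference between the brighter and the dimmer His4/His4r probe set within each array, by genotype, with a bar at the mean. The 3 bam arrays lie lowest, at 1.74 to 2.19, and the yw arrays at 3.05 to 3.62.

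For the S-phase histones, another probe set names 20 His2A copies and no other gene. It ranged between 276 and 301 in bam, between 1010.4 and 1717 in yw, between 3726 and 4634 in sa and between 4509 and 5898 in aly. The bam testes were thus lowest and those of both arrest mutants highest. It was 17.1-fold higher in aly than in bam (4.09, limma adjusted p = 1.14e-08) and 13.9-fold higher in sa (3.80), whereas bam was 4.66-fold lower than yw (-2.22). In sa minus yw it was at 1.57, and at 0.63 without a call under ribosomal centring. This order is unlike that of the His4/His4r probe sets, both brightest in bam; whether the labelling read messages with or without a poly(A) tail is not given in the sources used here.

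Of 7 probe sets measured in the list of S-phase histone messages and their regulators, the His2A one included, 2 were higher and 2 lower in aly than in bam, where 16.3% and 18.5% of genes were, and 3 and 2 in sa, where 20.5% were called either way. The gene mxc, which organises the histone locus body, was lower in aly (-1.17) and sa (-1.57), and Slbp, which binds the stem-loop, was lower by -1.38 and -1.48. The gene abo, a repressor of histone genes in the fly, was higher by 1.73 and 1.05, and mute, of the histone locus body, was called higher in sa (1.23). The mxc call in aly was lost with ribosomal centring (-0.83) and quantile normalization (-0.94), and the abo and mute calls in sa with median centring (0.81 and 1.0).

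His3.3A and His3.3B, on chromosome arms 2L and X, are known to encode the same H3.3 protein. Genes for H3.3 deposition were all measured (5 of 5). Hira, which places H3.3 outside replication, was at 388 ± 41.2 in bam, 998 ± 87.6 in aly, 1215 ± 75.5 in sa and 280.0 ± 51.2 in yw. It was called higher in aly (1.33, limma adjusted p = 5.55e-06) and sa (1.61, limma adjusted p = 9.58e-07) than in bam. Its partner yem was not called in these (-0.38 and -0.58). In contrast asf1, the H3-H4 chaperone of both assembly routes, was lower than in bam by -2.25 in aly and -2.60 in sa, and the remodeller XNP was lower in aly (-1.01), a call lost with ribosomal centring (-0.67) and without bam replicate 1, bam replicate 2 or aly replicate 2. Daxx was not called (-0.85 and -0.13).

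Of the 3 subunits of CAF-1, which assembles nucleosomes behind replication forks, Caf1-180 was lower than in bam in both aly (-2.38) and sa (-2.63), while Caf1-105 (0.67 and 0.35) and Caf1-55 (-0.08 and -0.69) were not called. Among 8 other chaperones measured, 1 was higher and 2 lower in aly than in bam (16.3% and 18.5% of genes), and 1 and 3 in sa (20.5% each). The higher one was mil, a testis gene of the NAP family, which went from 39.4 ± 7.78 in bam to 899 ± 202 in aly, 4651 ± 1128 in sa and 11344 ± 1435 in yw. Its bam mean lay below the bam array medians of 44.9 to 45.8, so the exact size of its differences from bam is not known. The general chaperone Nap1 fell in sa (-1.01, no call at -0.78 with ribosomal centring, nor without bam replicate 1 or 2 or sa replicate 1 or 3), as did the H3-H4 chaperone Nasp (-1.64). Set fell in both (-1.89 in aly, -1.76 in sa) and the nucleoplasmin-like Nlp in aly (-1.06). Against yw, 7 of these 8 were higher in bam, beside 34.2% of genes, and mil was lower (-7.68). They were led by Nap1 (3.33) and the FACT subunit dre4 (2.99), both still called with ribosomal centring (2.15 and 1.82).

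**Figure D4:**
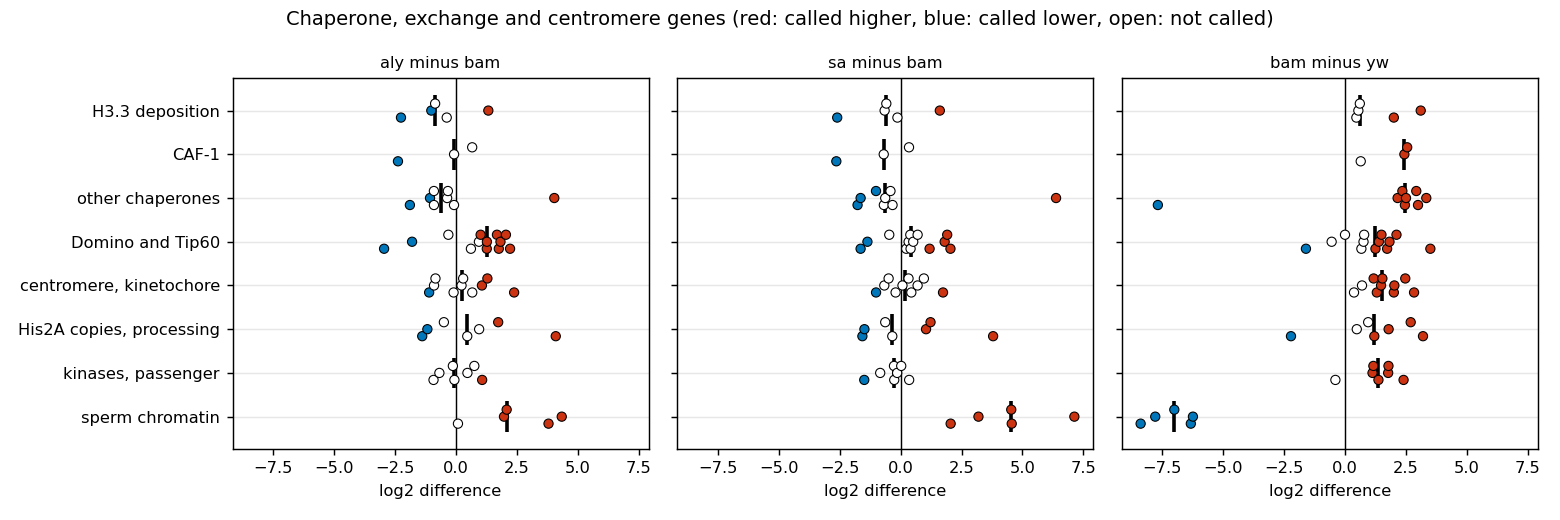
Log2 differences of genes of 8 lists in aly minus bam, sa minus bam and bam minus yw, each point a gene and each bar the list's median. The Domino and Tip60 list has its median at 1.27 in aly minus bam, and the 5 sperm chromatin genes lie between -8.39 and -6.24 in bam minus yw.

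Cid sits on chromosome arm 2R. It measured 515, 574 and 611 in bam, 373, 417 and 325 in aly, 280.4, 275 and 340.0 in sa, and 55.4, 32.6 and 33.5 in yw. The bam arrays were highest, aly and sa overlapped, and all yw arrays lay far below the mutants. Of these, replicate 1 was near the yw array medians of 52.9 to 54.0, and replicates 2 and 3 lay below them. Means were 566 ± 48.3 in bam, 372 ± 46.2 in aly, 299 ± 36.0 in sa and 40.5 ± 12.9 in yw (SD, n = 3 each).

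Against yw, cid was 10.5-fold higher in bam (3.39, 95% confidence interval 3.04 to 3.73, limma adjusted p = 4.93e-09), 6.95-fold in aly (2.80, limma adjusted p = 3.68e-08) and 5.64-fold in sa (2.49, limma adjusted p = 1.74e-07). These folds are on the log2(intensity + 16) scale, and since cid in yw is not shown to be above background, their exact size is not known. With ribosomal centring the differences were 2.21, 1.96 and 1.55, all called, the lowest among the scalings run. Below bam, cid was at -0.59 in aly (limma adjusted p = 0.00822) and -0.89 in sa (limma adjusted p = 4.69e-04), short of the fold minimum, which sa passed with median centring (-1.12). Aly minus sa was 0.30 with an interval of -0.04 to 0.64.

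**Figure D5:**
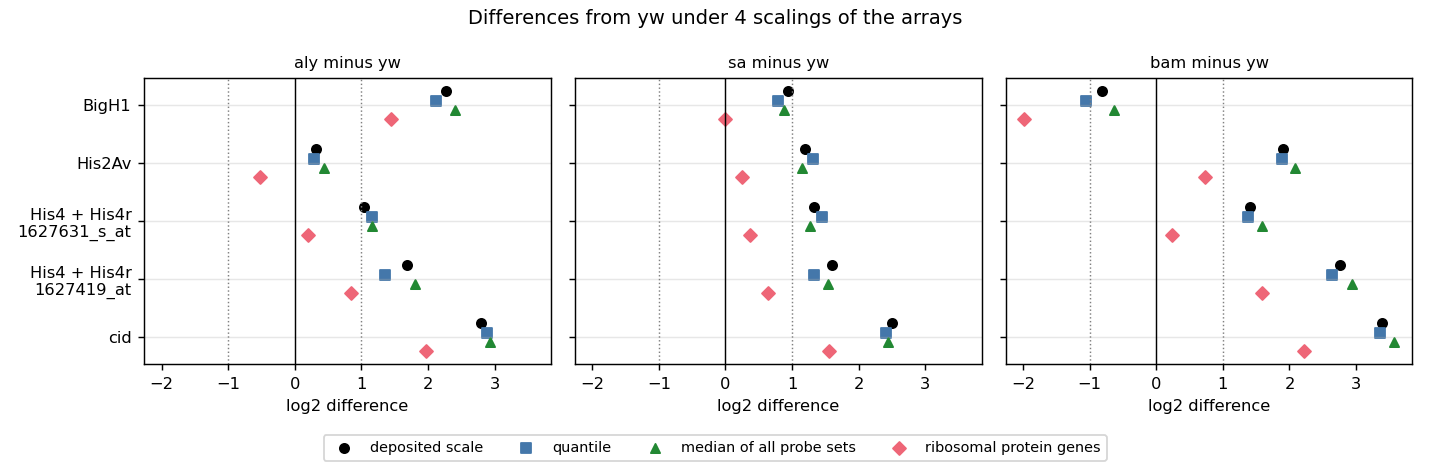
Log2 differences from yw of the 5 histone probe sets under 4 scalings of the arrays; dotted lines mark a 2-fold change. Centring on ribosomal protein genes moves every point to the left, and cid is at 1.55 or more throughout.

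Cid is loaded by cal1 and bound by Cenp-C, which are named here for those roles after their values were seen. Levels of cal1 were 565 ± 152 in bam, 302 ± 21.0 in aly, 394 ± 80.0 in sa and 238 ± 25.3 in yw, and it was called in bam minus yw alone (1.17, and -0.0047 with ribosomal centring). Cenp-C was at 881 ± 36.6, 825 ± 78.5, 1173 ± 448 and 358 ± 102 in the same order. Against yw it was called in bam (1.30), aly (1.20) and sa (1.63), and in none with ribosomal centring (0.13, 0.37 and 0.68). The rise of cid over yw was larger in each mutant than that of either partner, a difference between genes that was not tested.

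Among the 10 centromere and kinetochore genes as a whole, 8 were higher in bam and in sa and 7 in aly than in yw, where 34.2%, 23.9% and 28.2% of all genes were, with medians of 1.50, 1.64 and 1.83 in bam, sa and aly. Over all genes the medians were 0.18, 0.08 and 0.15. With ribosomal centring the counts were 2, 4 and 5. Over all 18769 probe sets, 2126, 795 and 1893 were then called higher in bam, sa and aly than in yw. On the deposited scale these were 4994, 3299 and 3902. The outer kinetochore gene Spc25 was the most changed of the list in each (2.83, 3.53 and 4.12) and was called under every scaling. Relative to bam, 3 were higher and 1 lower in aly (16.3% and 18.5% of genes) and 1 and 1 in sa (20.5% each), with Mis12, of the linker complex, higher in both (2.39 and 1.74). Without 1 array these counts moved: lower in aly to 2 without bam replicate 2 and 0 without bam replicate 3, higher in sa to 2 without sa replicate 3, and lower in sa to 0 without bam replicate 2 or 3 or sa replicate 1 or 2. Nnf1b and Kmn1 were called higher in aly than in sa (1.73 and 1.67) and Spc105R lower (-1.18, no call with median centring).

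The genes that take over from histones in the spermatid had their lowest sums in bam and their highest in yw. BigH1 and the His2A copies were also lowest in bam. The 5 sperm chromatin genes were called lower than in yw in bam, aly and sa, where 18.5%, 15% and 12.9% of genes were. Their summed intensities lay between 127 and 157 in bam, 1496 and 1724 in aly, 7436 and 11154 in sa, and 33411 and 38458 in yw. The histone-like gene Mst77F rose from 34.7 ± 5.20 in bam to 199 ± 27.7 in aly and 7164 ± 1528 in sa. The protamine ProtB was at 20.1 ± 1.69 in bam and 22.2 ± 1.80 in aly (0.08, limma adjusted p = 0.823) but rose to 140.5 ± 58.4 in sa (2.05). The bam means of Mst77F and ProtB lay below the bam array medians of 44.9 to 45.8, so the exact size of their differences from bam is not known.

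In position, His4r and BigH1 lie on the same arm with 6 genes between them in the Release 6 annotation. Flanking genes, given for their position, differed in their behaviour. Next to BigH1, Meltrin was higher in aly (1.30) and sa (2.30) than in bam, without a call between aly and sa, Hexim was 1.03 in aly and 0.83 in sa and Rad17 1.37 and 0.66, the first of each a call, and kibra was not called (0.75 and 0.58). Next to His2Av lie the histone kinase gene ball, which had -0.68 and -0.84 in these comparisons, neither called, SPARC and IntS12, lower in both (-1.35 and -1.40, -2.35 and -2.90), and Rb97D, higher in both (2.76 in each). Next to cid, cbc was higher in aly and sa than in bam (2.56 and 2.14), whereas bbc (-2.02 and -1.19) and drk (-3.66 and -2.91) were lower and cid was not called (-0.59 and -0.89). Next to His4r, put was lower in aly (-1.44) and not called in sa (-0.72), CG7886 was higher in both (7.29 and 6.34) and CG14853 was not called (-0.06 and -0.11).

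Over the 12 arrays, the genes whose log2 profile was most like that of each histone were found by Pearson's r, a measure carried by the 4 genotypes and given without a test. For BigH1 they were BORCS6 (r = 0.998), CG3223 (0.997) and NC2alpha (0.997). For cid they were CG5033 (0.997), SmE (0.996) and CCT1 (0.995), and for His2Av SmD3 (0.990), Pak3 (0.989) and Pp1-87B (0.982). For the brighter His4/His4r probe set they were levy (0.996), mRpL12 (0.993) and UQCR-14 (0.992). BORCS6 was at mean intensities of 2705 in aly, 1126 in sa, 596 in yw and 310.0 in bam, the order BigH1 followed.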

How the data were processed

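Affymetrix arrays of 12 testis RNA samples were used, 3 for each of 4 genotypes taken from the labels. The deposited table holds, for each probe set, an intensity on a linear scale. Scanner files were normalized with RMA per the series' design text, and MAS5, RMA and limma are named per the submitters' processing notes; which of these gave the deposited scale is not stated, so its background correction is unknown. Of 18952 probe sets, 183 controls were left out; 13647 name 1 gene, 402 several and 4720 none here.

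The log2(intensity + 16) values of all 18769 probe sets entered 1 fit in limma 3.58.1 under R 4.3.3, with one coefficient for every genotype, eBayes, 6 comparisons and Benjamini-Hochberg adjustment over all probe sets. No filter on dim probe sets was used. The fit was tested on simulated data. In list counts the brightest probe set stood for each of 11982 genes. Tables and plots used Python 3.11.15. Arrays have no read depth; their number limits the precision.

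Members and lists were chosen with earlier results of these data known. Named genes were every member probe set, up to 4 genes with the largest difference per list and comparison, and the 3 genes most like each member gene, by its brighter probe set; cal1, Cenp-C, flanking genes and uncalled list members named beside called ones lie outside that rule and were named after their values were seen. Lists of H3.3 deposition, CAF-1, other chaperones, Domino and Tip60, centromere, S-phase histone, kinase, sperm chromatin and HMG genes were used (of the last, D1 alone of 4 was measured: -1.46 in aly and -1.22 in sa against bam, both called on the deposited scale), beside markers of spermatogonia, spermatocytes, spermatids, muscle, hub and cyst, accessory gland, fat body and hemocytes. Hub and cyst sums were 1164 to 1294 in bam and 373 to 695 elsewhere, fat body sums 303 to 3527 and hemocyte sums 374 to 2151 over all arrays. The planned comparison of His3.3A with His3.3B was not run. Protein and promoter sequences were not used here.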

Additional observations from a re-analysis of the deposited data

How the results depend on the processing

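Counts of called histone probe sets changed by over 1.5 times in these settings. With ribosomal centring they were 1 in sa minus bam, 1 in sa minus yw and 2 in aly minus yw, and 10104 and 13349 of all probe sets were called in sa minus yw and bam minus yw. With 1 value per gene, as the brightest probe set or the mean, the 2 His4/His4r probe sets drop out by construction, and the counts were 1 in sa minus bam and 2 in each comparison with yw. With no fold minimum they were 4 in sa minus bam, 5 in aly minus bam and 3 in aly minus sa, and over all probe sets 10610 were called in sa minus bam, 8743 in aly minus bam, 10599 in sa minus yw, 9197 in aly minus yw and 9018 in aly minus sa. Quantile normalization gave 2 in aly minus sa, and leaving out 1 array gave 1 to 2. Among the histone probe sets, directions turned in 5 cases, none of them called on the deposited scale: the brighter His4/His4r probe set in sa minus bam (0.0813 quantile, 0.14 ribosomal), BigH1 in sa minus yw (-0.012 ribosomal), His2Av in aly minus yw (-0.52 ribosomal) and the dimmer His4/His4r probe set in aly minus sa (-0.0115 without sa replicate 1, the leave-one-out range being -0.0115 to 0.148). The cause was not tested. Over all probe sets the share of calls that were higher also moved in aly minus bam, from 44 to 57.3% with ribosomal centring, and in aly minus sa, from 40.5 to 53.1% with median centring; in sa minus bam it went from 46.9 to 38.8% with median centring and to 55.3% with ribosomal centring.

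The labels do not say whether the replicate numbers pair the samples. Correlations of same-numbered deviations ran from -0.37 to 0.40, and with 3 arrays a genotype they cannot settle it. A replicate block left the histone counts as they were (2 in sa minus bam, 3 in aly minus bam, 1 in aly minus sa, 4 against yw in each mutant) and over all probe sets gave 5810 calls in sa minus bam, 5024 in aly minus bam, 5078 in sa minus yw, 5967 in aly minus yw, 7524 in bam minus yw and 2699 in aly minus sa. The unequal change of the His4/His4r probe sets, as yw minus bam, was 1.18 to 1.50 with 1 array left out. His3.3A over His3.3B was not run under any setting. Dim transcripts, such as cid in yw, have differences that the pseudocount of 16 understates.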
